A study of Homo sapiens with 3 samples.

Results

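The SMAD proteins and the TGF-beta receptors carry TGF-beta and BMP signals from the cell surface to the nucleus, and 10 of their genes were examined here. They are SMAD1 to SMAD7, SMAD9, TGFBR1 and TGFBR2, taken by symbol from the deposited table, in which they hold 22 RefSeq rows of 28848 with a vector value and make up 10 of 18674 genes. RNA sequencing of poly-A RNA was done on 3 libraries of A2780, a human ovarian cancer cell line. Cells of miR-181a pool 1 and pool 2 (1 library each) stably expressed exogenous miR-181a, and control cells (1 library) stably carried the empty pBABE retroviral vector. Whether each miR-181a culture is a polyclonal pool or a clone differs between fields of the labels. Nothing says that the pools came from separate infections, so the spread between them may be technical.

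A TGF-beta ligand binds the receptor TGFBR2, which recruits and phosphorylates TGFBR1. TGFBR1 then phosphorylates SMAD2 and SMAD3, which join SMAD4 and enter the nucleus. BMP receptors act in the same way on SMAD1, SMAD5 and SMAD9, which also join SMAD4. SMAD6 and SMAD7 inhibit these steps, and SMAD7 is itself induced by TGF-beta as a feedback inhibitor. A microRNA lowers messages that pair with its seed, most often in the 3 prime UTR, and SMAD7 is a reported target of miR-181a.

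The mature sequences of miR-181a and its relatives are shown because they share the seed, bases 2 to 8 from the 5 prime end, in capitals. They are from RefSeq.
hsa-miR-181a-5p: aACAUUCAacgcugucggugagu
hsa-miR-181b-5p: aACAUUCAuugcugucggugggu
hsa-miR-181c-5p: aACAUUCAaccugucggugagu
hsa-miR-181d-5p: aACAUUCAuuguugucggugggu
All 4 carry the seed ACAUUCA, so the matches searched in the messages do not tell these relatives apart. The letters searched on the message strand were TGAATGT, which pairs with bases 2 to 8, and GAATGTA, which pairs with bases 2 to 7 and has A opposite base 1. Where they overlap they form the 8-base match TGAATGTA, which was counted once. One canonical transcript per gene was searched, with GENCODE annotation on GRCh37, the assembly that hg19 names. That transcript was not matched to the RefSeq rows measured, so a match may lie outside them.

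Of the 10 genes, 6 held at least 1 match in the 3 prime UTR, and 1, TGFBR1, held the 8-base match. Of 12268 tested genes with a 3 prime UTR, 26.3% held a match of any kind and 6.72% the 8-base match. The UTRs of the 10 genes had a median length of 4239 bases, against 1236 bases over those tested genes, and a longer UTR has more places for a match. SMAD2 held 5 matches in a UTR of 32870 bases, TGFBR2 3 in 2543 bases, SMAD3 2 in 4633 bases and TGFBR1 2 in 4887 bases. SMAD7 held 1 match, 1461 bases after the stop codon in a UTR of 1519 bases, and SMAD9 held 1, at base 109 of 3845. No match was in the UTRs searched of SMAD1, SMAD4, SMAD5 and SMAD6. The other matches of TGFBR1 and TGFBR2, and those of SMAD2 and SMAD3, are not printed. The sites of SMAD7 and SMAD9, the 8-base match of TGFBR1 and the first match of TGFBR2 follow on the message strand, in capitals.
SMAD7, chr18:46446266-46446294, minus strand: gttatcacctagcTGAATGTttttctaaa
SMAD9, chr13:37422689-37422717, minus strand: gtgtaaatacataGAATGTAtactgttct
TGFBR1, chr9:101912029-101912057, plus strand: ttgattcagacttTGAATGTActgttcta
TGFBR2, chr3:30733866-30733894, plus strand: atctttaatacctTGAATGTtttgaaccc
A match is a description of letters and shows no binding.

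**Figure D1:**
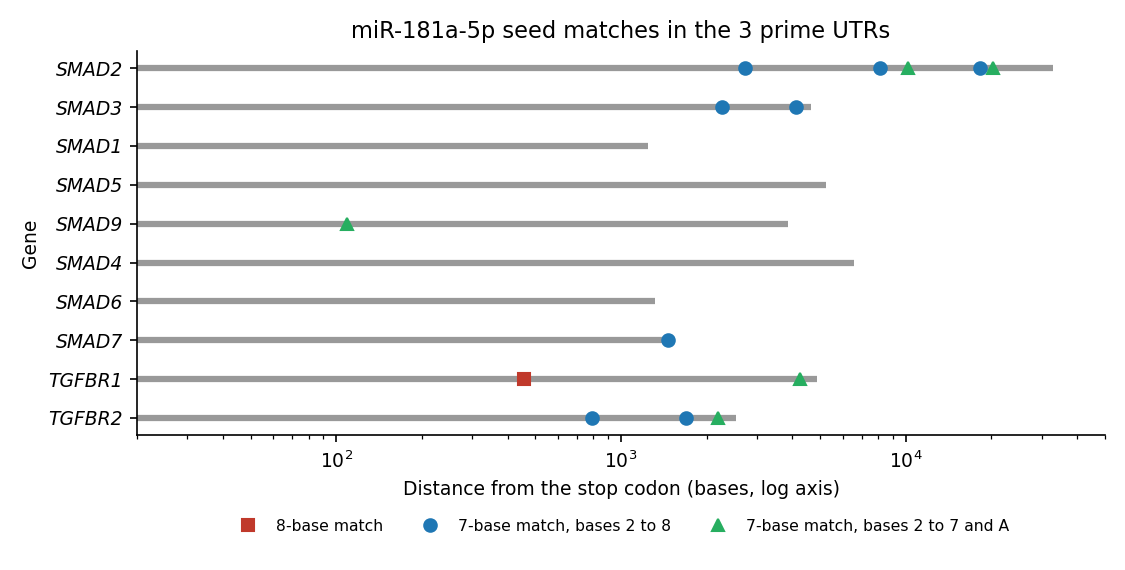
Matches to the miR-181a-5p seed along the 3 prime UTR of each gene, by distance from the stop codon in bases on a log axis. Grey bars run to the end of each UTR. The match of SMAD7 lies at base 1461 of 1519, that of SMAD9 at base 109, and TGFBR1 holds the only 8-base match among these 10 genes.

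Coverage here is the authors' median of read density over windows of 50 bp along a transcript, a value per length. Levels of different genes are set side by side below, though vector values could differ widely between rows of one gene. No read counts come with the coverage, so the depth of the libraries is unknown. Over the rows used, coverage summed to 907092 in pool 1, 719263 in pool 2 and 798228 in the vector library, and 32.3%, 32.2% and 12.8% of rows were listed at 0. Of 8822 rows at 0 in both pools, 62.9% were above 0 in the vector library. Of 8 epithelial markers, summing to 17.6 and 16.6 in the pools, against 138 in the vector library, KRT8, KRT18 and CLDN4 were above 0 in the pools but EPCAM, CDH1, KRT7, KRT19 and CLDN7 at 0 in both, and of 6 ovarian lineage markers, summing to 0.679 and 0.577, against 126, PAX8, WT1, ESR1 and MUC16 were at 0 in both. In the vector library CDH1, KRT7 and WT1 were at 0 and the others above 0. The summed level of 4 endothelial markers was 0 in pool 1 and 0.037 in pool 2, against 220 in the vector library, and that of 5 immune markers was 2.76 and 2.44, against 72.7. Of the 4 endothelial markers 3 were at 0 in both pools, of the 5 immune markers 2, and none of these 9 was at 0 in the vector library. The 5 mesenchymal markers summed to 2493 and 2119 in the pools, against 1290, with VIM at 2328 and 2007, against 1173, CDH2 at 51.5 and 39.7, against 7.02, and FN1 at 0 in both pools. For ZEB1 (13.2 and 9.89, against 10.2) and TWIST1 (101 and 62.5, against 96.0) the vector value lay between the pools. CLDN4 was higher in the pools, at 1.76 and 1.21, against 0.589. Apart from ZEB1, TWIST1 and the markers at 0 in every library, these markers lay on one side of the vector library in both pools. Some were higher and more were lower, and the part of these levels in the results below was not tested. In bulk RNA, fewer cells with a message and less message per cell cannot be told apart.

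SMAD7 and SMAD9 fell in the miR-181a pools, and none of the other 8 genes passed the test. The test was limma on log2(coverage + 1) over 12552 genes, with a Benjamini-Hochberg adjusted p under 0.05, and a gene with several rows was represented by the row of highest mean. Its residual spread comes from the pools alone (1 degree of freedom), and the single vector library is taken to be as variable. Of all genes tested, 21.7% fell and 1.00% rose, and by a size rule of 1 log2 unit or more in each pool, 27.3% were lower and 2.53% higher. The 2 of 10 genes that fell, which are also the 2 of 10 lower by the size rule, are near those shares, and 0 of 10 rose or were higher by the size rule. The median log2 difference was -0.08 over the 10 genes and 0.07 over all genes tested. At an unadjusted p under 0.05, 3 of the 10 genes were lower and 0 higher, against 27.8% and 5.39% of all genes tested. All 10 passed the filter on low values, a mean coverage over the 3 libraries above 2.44. SMAD7 had a pool mean under that value, so its vector value alone carried it into the test and a difference was built in. The same held for 2281 of the 2725 genes that fell. Of the 10102 tested genes with a pool mean at or above 2.44, to which SMAD9 belongs, 4.40% fell.

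Among the inhibitory SMADs, SMAD7 was measured in row NM_005904. The gene is protein coding and lies on chromosome 18 from 46446223 to 46477335 (GRCh37, as are the positions that follow). Its coverage was 1.87 in pool 1 and 1.56 in pool 2, against 58.0 in the vector library. Both pools were far below the vector library and close to each other. The pool mean was 1.72 ± 0.22 (SD, n = 2), and the log2 difference of the pools from the vector library was -4.44 (SE 0.19, limma adjusted p = 0.00665), lower in 2 of 2 pools. Given how it entered the test, this p describes the values and is no independent support. With no filter on low values the adjusted p was 0.00771. SMAD7 was the lowest of the 10 genes in each pool and the highest of them in the vector library. It has a single row in the table, so no second transcript gives another reading of it. Among 5964 rows with a pool mean of 1 to 10, the linear ratio of the vector value to the pool mean was at least that of SMAD7 (33.8) in 59 rows, or 0.989%. Rows at 0 in both pools, 5549 of them above 0 in the vector library, lie outside that range, and SMAD7 lies near its lower end. Of 3273 tested genes with a pool mean in that range, 17.7% fell and 3.57% rose, and those under 2.44 entered through their vector value.

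SMAD6, which inhibits BMP signals above all (chromosome 15, 66994574 to 67075187), had a coverage of 3.81 and 3.43 in the pools, against 5.75 in the vector library, in the tested row NM_001142861. Its other row, NM_005585, had 4.52 and 2.89 in the pools, against 4.71 in the vector library. In both rows the pools lay below the vector library, though pool 1 lay only just below it in NM_005585. The log2 difference of the tested row was -0.55 (SE 0.09, limma adjusted p = 0.08), which did not pass, and with quantile normalization it turned to 0.99 and passed (limma adjusted p = 0.0184). Within a library, SMAD7 stood at 0.492 times SMAD6 in pool 1 and 0.454 times in pool 2, against 10.1 times in the vector library. A common scaling factor of a library cannot alter this ratio.

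**Figure D2:**
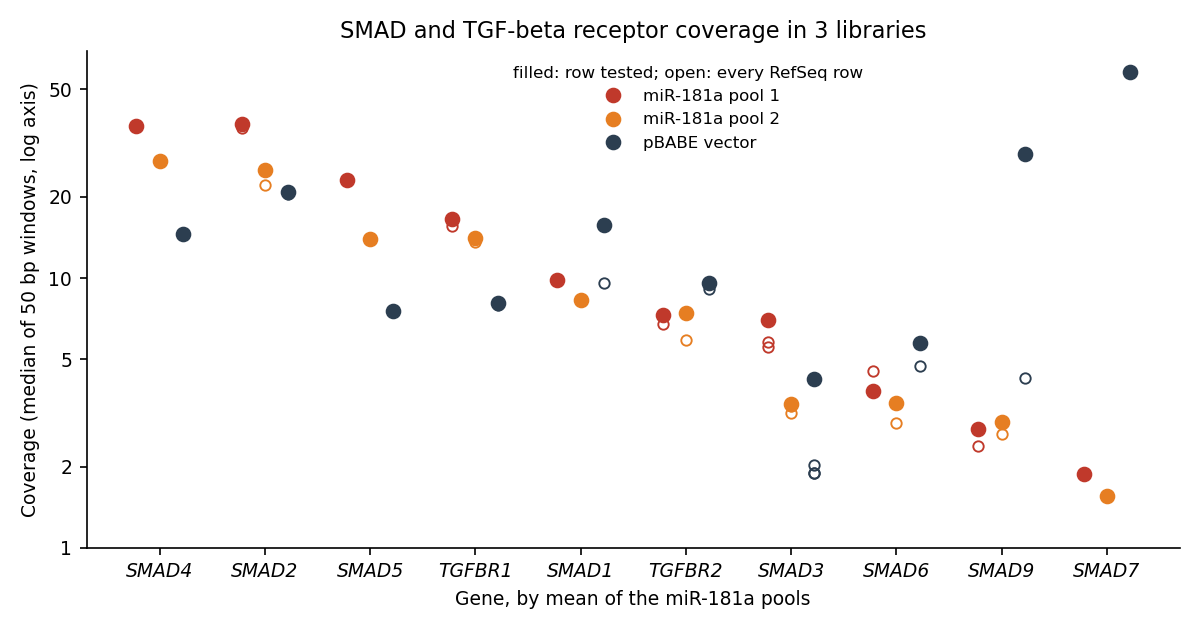
Coverage of the 10 genes on a log axis, in miR-181a pool 1, pool 2 and the pBABE vector library, ordered by the pool mean. Filled points are the rows tested and open points every RefSeq row. SMAD7 stands at 1.87 and 1.56 in the pools, against 58.0 in the vector library, and a single row of SMAD9 stands at 28.7 in the vector library.

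Among the SMADs of the BMP branch, SMAD9 (chromosome 13, 37418968 to 37495024) passed the test, in which 1 of its 2 rows was used. Its tested row, NM_005905, had a coverage of 2.76 in pool 1 and 2.94 in pool 2, against 28.7 in the vector library. The pools were again close together and far below. The pool mean was 2.85 ± 0.12 (SD, n = 2) and the log2 difference was -2.95 (SE 0.17, limma adjusted p = 0.0117), lower in 2 of 2 pools. The other row, NM_001127217, had 2.38 and 2.65 in the pools, against 4.27 in the vector library, a log2 difference of -0.59. The 2 rows of SMAD9 thus differed by 1.16 times in pool 1 and 1.11 times in pool 2, against 6.73 times in the vector library. The tested row was the higher in each library, but the mean that chose it included this vector value. Its p thus describes the row chosen. When each gene was represented by its row of lowest vector value, a choice made after the data were seen, SMAD9 did not pass (limma adjusted p = 0.0508). A ratio of the vector value to the pool mean at least that of NM_005905 (10.1) was found in 278 of the 5964 rows, or 4.66%.

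SMAD1 (chromosome 4, 146402346 to 146480328) had the same coverage in both of its rows in the pools, 9.87 in pool 1 and 8.30 in pool 2. The vector library gave 15.7 in row NM_001003688, which was tested, and 9.61 in row NM_005900. The pools were thus below the vector library in the tested row and on either side of it in the other. The log2 differences were -0.74 (SE 0.30, limma adjusted p = 0.247) and -0.08. With each pool shifted by its median ratio to the vector library over genes above 50, the tested row passed as lower, at -1.08 (limma adjusted p = 0.0448).

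SMAD5 (chromosome 5, 135468534 to 135524435) gave equal values in its 3 rows in every library, 23.1 and 14.0 in the pools, against 7.55 in the vector library. Both pools were above the vector library, and pool 1 was well above pool 2. The log2 difference of 1.15 (SE 0.48) was the highest of the 10 genes but did not pass (limma adjusted p = 0.258). The pools differed from each other by 0.69 log2 units. SMAD5 passed with a filter at the median (limma adjusted p = 0.0366) and with quantile normalization (limma adjusted p = 0.0279). The filter at the median gave SMAD9 a limma adjusted p of 1.29e-227 from 3 libraries, so p-values in that setting carry little weight.

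In the TGF-beta branch, SMAD2 (chromosome 18, 45335328 to 45457517) had a coverage of 37.1 and 25.2 in the pools, against 20.8 in the vector library. Its rows NM_001003652 and NM_005901 were equal in every library, and the row NM_001135937 had 35.9 and 22.0 in the pools, against 20.4. The log2 difference was 0.54 (SE 0.38, limma adjusted p = 0.416), and pool 2 lay nearer to the vector library than to pool 1.

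SMAD3 (chromosome 15, 67356101 to 67487511) was lower in coverage than SMAD2 in every library. The tested row, NM_001145104, had 6.96 in pool 1 and 3.40 in pool 2, against 4.22 in the vector library, so the vector value lay between the pools (log2 difference 0.18, SE 0.50, limma adjusted p = 0.819). In the other 3 rows both pools were above the vector library, with vector values of 1.89 to 2.02 and log2 differences of 0.81 to 1.03. The difference of the tested row turned to -0.14 with each pool shifted by genes above 50. It was 1.67 with quantile normalization, where it passed (limma adjusted p = 0.0445).

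SMAD4, the common partner of both branches (chromosome 18, 48554898 to 48611415), has 1 row and had a coverage of 36.7 and 27.2 in the pools, against 14.5 in the vector library. Both pools were above the vector library by more than they differed from each other. The log2 difference of 1.07 (SE 0.33) did not pass (limma adjusted p = 0.189). It passed with library medians set equal (1.21, limma adjusted p = 0.0253) and with quantile normalization (1.47, limma adjusted p = 0.0148). SMAD4 stood at 0.988 and 1.08 times SMAD2 within the pools, against 0.699 times within the vector library.

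**Figure D3:**
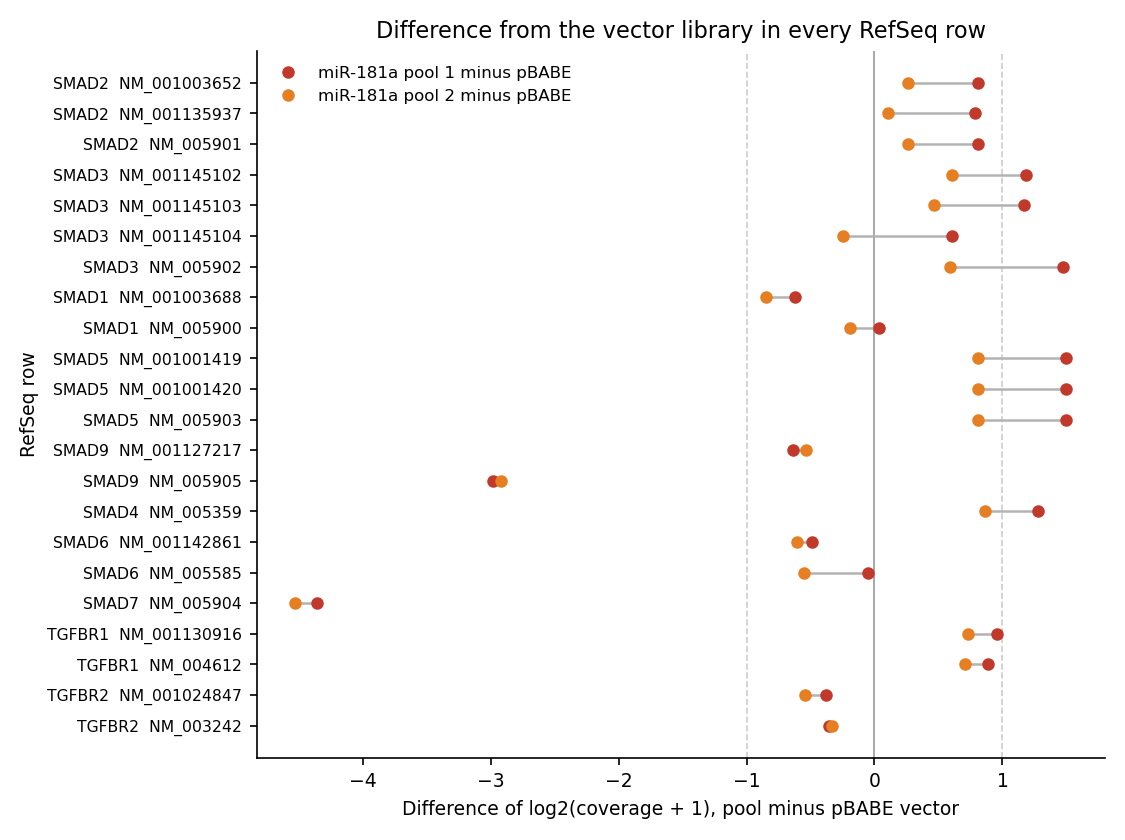
Difference of log2(coverage + 1) from the vector library for pool 1 and pool 2 in each of the 22 RefSeq rows, with dashed lines at 1 and -1. Both pools lie above the vector library in 12 rows and below it in 8, and on either side of it in 2, before any scaling between libraries. The 2 rows of SMAD9 lie apart, at -2.95 and -0.59.

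The receptor genes lay on opposite sides of the vector library, and neither passed the test. TGFBR1, the type I receptor kinase (chromosome 9, 101866320 to 101916474), had 16.6 and 14.0 in the pools, against 8.07 in the vector library, in row NM_001130916. Its row NM_004612 had 15.6 and 13.6 in the pools, against 7.98. The pools were close together and above the vector library in both rows, with a log2 difference of 0.84 (SE 0.30, limma adjusted p = 0.222) in the tested row. TGFBR2, the type II receptor kinase that binds the ligand (chromosome 3, 30648093 to 30735634), had 7.27 and 7.39 in the pools, against 9.58 in the vector library, in row NM_003242. Its row NM_001024847 had 6.75 and 5.92 in the pools, against 9.10. The pools were below the vector library in both rows, with a log2 difference of -0.34 (SE 0.21, limma adjusted p = 0.37) in the tested row, which turned to 0.50 with quantile normalization.

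Within a library, the ratio of TGFBR1 to TGFBR2 was 2.28 in pool 1 and 1.90 in pool 2, against 0.842 in the vector library. Over the 4 combinations of their rows it ranged from 1.84 to 2.46 in the pools and from 0.833 to 0.887 in the vector library. A common scaling factor of a library leaves this ratio as it is, and it has no test of its own. TGFBR1 holds the 8-base seed match and TGFBR2 holds 3 matches, and neither passed the main test in either direction. With quantile normalization TGFBR1 passed as higher, at 1.73. SMAD7 and SMAD9, which fell, hold 1 match each. The part of the matches in any of these levels was not tested.

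In the pools, the order of mean coverage was SMAD4 (31.9 ± 6.70), SMAD2 (31.1 ± 8.44), SMAD5 (18.6 ± 6.49), TGFBR1 (15.3 ± 1.82), SMAD1 (9.08 ± 1.11), TGFBR2 (7.33 ± 0.09), SMAD3 (5.18 ± 2.52), SMAD6 (3.62 ± 0.27), SMAD9 (2.85 ± 0.12) and SMAD7 (1.72 ± 0.22; SD, n = 2 each). Of the 9 pairs of neighbours, the ranges of the pools overlapped in 3, which were SMAD4 with SMAD2, SMAD5 with TGFBR1, and SMAD3 with SMAD6. In the vector library the order of the tested rows began with SMAD7, SMAD9, SMAD2, SMAD1 and SMAD4. By their other rows, at 4.27 and 9.61 in the vector library, SMAD9 and SMAD1 would both stand below SMAD4. Pool 2 was below pool 1 in 8 of the 10 genes, by a median of 0.23 log2 units, and by 0.27 over all genes tested.

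Rows of one gene gave a further reading of the vector values. In 1408 sets of rows of one gene with equal values above 0 in both pools, the vector value differed within 78.3% of sets and lay at least 1.5-fold apart, as coverage + 1, in 29.1%. Where the vector library and pool 1 were equal (497 sets), pool 2 differed in 16.9% and lay as far apart in 0.201%. Where the vector library and pool 2 were equal (490 sets), pool 1 differed in 15.9% and lay as far apart in 0%. SMAD1 is one of the sets in which only the vector value differed, and SMAD2 and SMAD5 hold sets equal in all 3 libraries. Of the 8 genes with several rows, the spread between rows was largest in the vector library for 4, SMAD1, SMAD3, SMAD6 and SMAD9. What lies behind these vector values was not tested.

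**Figure D4:**
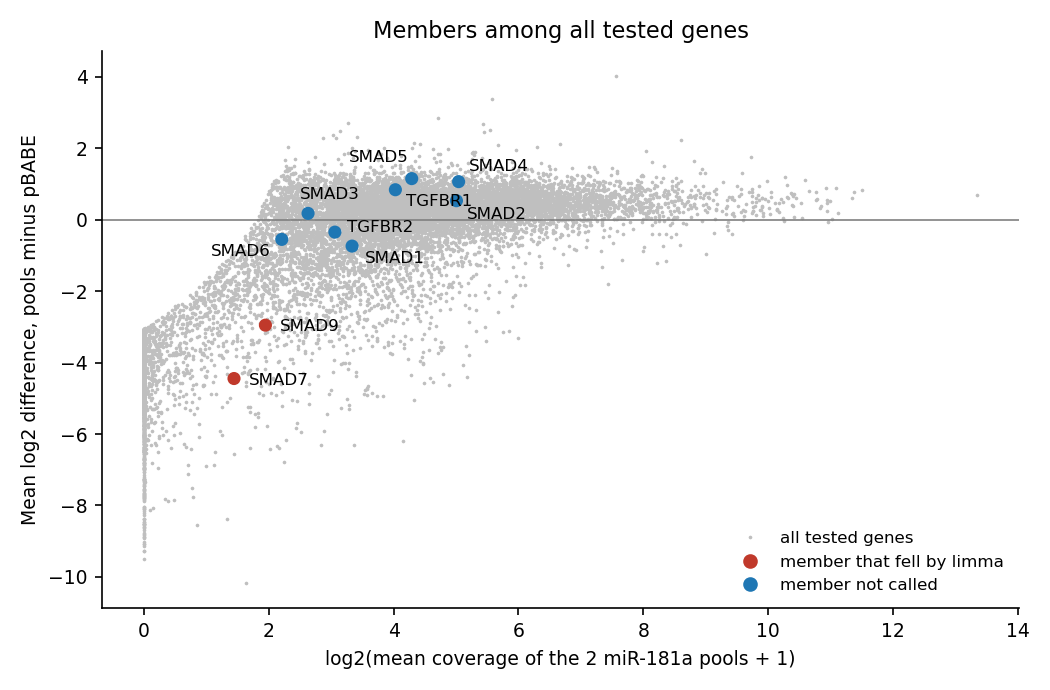
Mean log2 difference of the pools from the vector library against log2(mean pool coverage + 1), with all 12552 tested genes in grey. SMAD7 at -4.44 and SMAD9 at -2.95 were called, and the other 8 genes lie between -0.74 and 1.15. With quantile normalization SMAD6 and TGFBR2 turned above 0, and with the shift by genes above 50 SMAD3 turned below 0.

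SMAD3, SMAD6 and TGFBR2 changed direction with the scaling between libraries, as given above. SMAD1 stayed lower, and SMAD2, SMAD4, SMAD5 and TGFBR1 stayed higher, in all 13 alternatives with a test. The median log2 difference over all genes tested was 0.07 as deposited, 0.21 with library medians set equal, 0.46 with quantile normalization and -0.29 with each pool shifted by genes above 50. Of all calls 4.42% were rises as deposited, and 35.9%, 60.9% and 7.81% with those scalings. With quantile normalization, which the labels' protocols name, 6 of the 10 genes rose: SMAD2, SMAD3, SMAD4, SMAD5, SMAD6 and TGFBR1. With the shift by genes above 50, 4 fell: SMAD1, SMAD6, SMAD7 and SMAD9. SMAD7 fell in all 13 alternatives with a test, with log2 differences of -5.01 to -2.54. SMAD9 fell in 12 of 13, all but the row of lowest vector value. These alternatives all rest on the same 3 libraries, so the counts are no independent support. In the 12, SMAD9 was read from its tested row or from a mean that held that row.

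The genes nearest to SMAD7 in level over the 3 libraries, by Euclidean distance of log2(coverage + 1), were MYLK (distance 0.25), RUNDC3A (0.28), GPR146 (0.30), LOC100287428 (0.30) and TNNI3 (0.37). They had vector values of 49.1 to 59.0 and pool values of 1.46 to 2.69. MYLK, which encodes myosin light chain kinase, gave vector values of 52.5 to 56.2 in all 6 of its rows. RUNDC3A gave 52.2 and 51.8 in 2 rows and 6.02 in the other, while its pool values were 1.70 to 2.23. Distances over 3 libraries say little beyond that these values are alike.

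Other genes of the pathway were read in 7 lists, which hold 113 genes apart from the 10. Of the 75 tested, 17 fell (22.7%) and 1 rose (1.33%), against 21.7% and 1.00% of all genes tested, with a median log2 difference of 0.13, against 0.07. Of the 17, 14 had a pool mean under the filter value of 2.44, 9 of them at 0 in both pools. The vector library alone carried these 14 past the filter, so a fall was built in. The text gives them by their values, with no fold or p. The 3 others were BMP5, ACVR1B and ACVR2A. The tested row of ACVR1B had the highest mean through its vector value, as another of its rows was higher in both pools. Its fall was thus built in too, and ACVR1B is given by its values alone. MSX1, the gene that rose, entered through the pools alone and is given in the same way. The counts of calls and the medians below cover tested genes alone, not those the filter left out. They include the genes whose fall or rise was built in.

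Of 23 genes for ligands of the family 11 were tested, 4 fell and 0 rose (median log2 difference -0.22). BMP2 was at 0 in both pools, against 73.2 in the vector library. BMP4 was at 0 and 0.087, against 13.6, in the tested row, and its other 2 rows had 4.37 in the vector library. NODAL was at 0 and 0.286, against 9.83, and BMP5 at 2.87 and 2.13, against 8.94 (log2 difference -1.51, SE 0.19, limma adjusted p = 0.0481). AMH, the anti-Müllerian hormone, had 13.4 and 8.12 in the pools, against 105, and did not pass (limma adjusted p = 0.0591). TGFB1, the ligand of TGFBR2, had 72.8 and 40.3 in the pools, against 49.6, and TGFB3 had 21.1 and 22.2, against 17.5, and neither passed. TGFB1 was outside the rule for naming genes and was chosen after its values were seen, because it is the main ligand.

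Of 12 other receptors 7 were tested, 3 fell and 0 rose (median -2.71). The falls of ENG and ACVR1B were built in, as given above, and the count and the median include them. ENG, a coreceptor, had 0.237 and 0.0965 in the pools, against 25.8, but its other row had 0.363 and 0.193, against 0.052. ACVR1B, an activin type I receptor that acts on SMAD2 and SMAD3, had 5.39 and 3.08, against 81.6, in the tested row. In row NM_004302 it had 7.18 and 3.99, against 2.92, with both pools above the vector library. Its row NM_020328 had 5.76 and 2.04, against 6.69. ACVR2A, an activin type II receptor with 1 row, had 4.70 and 3.90, against 33.6 (log2 difference -2.71, SE 0.27, limma adjusted p = 0.0328). ACVR2B had 6.45 and 3.19, against 57.7, and the BMP type II receptor BMPR2 had 19.7 and 12.5, against 51.7, and neither passed (limma adjusted p = 0.0773 and 0.153). The BMP type I receptor BMPR1A had 35.5 and 27.6, against 16.9, and ACVR1 had 15.1 and 10.7, against 8.72, and neither passed.

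**Figure D5:**
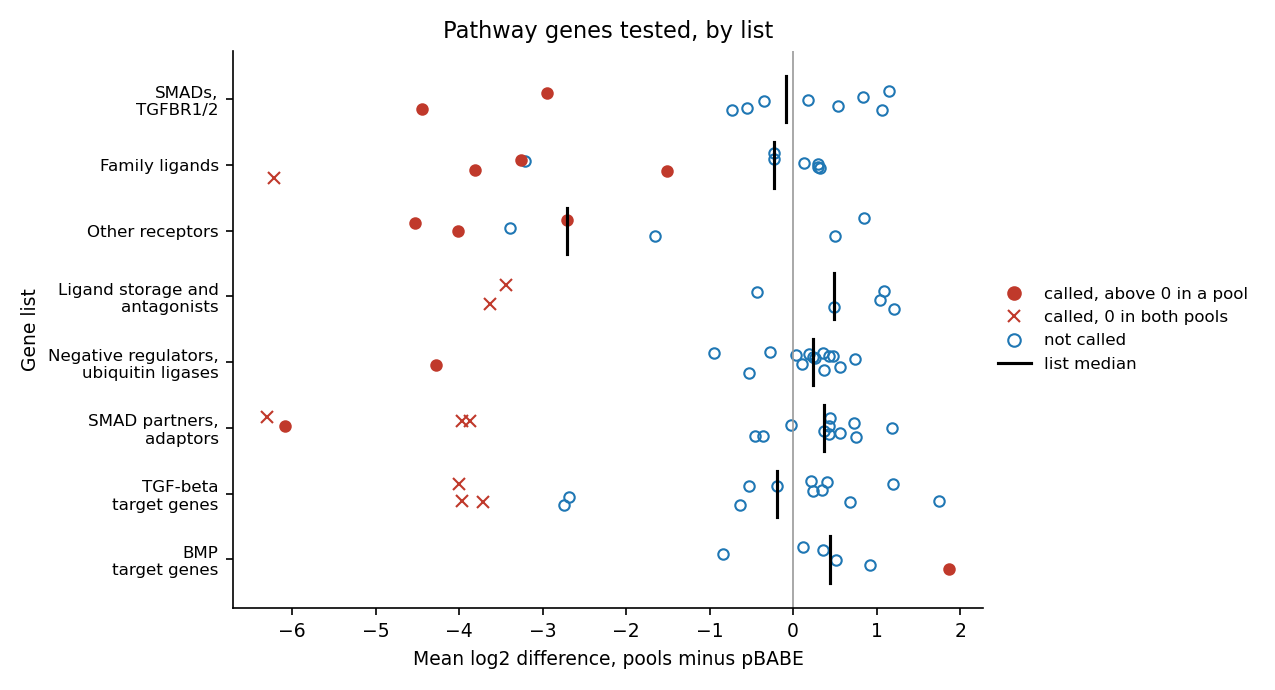
Mean log2 difference of the pools from the vector library for the 10 genes and for the tested genes of the 7 lists, with a bar at the median of each. Crosses are called genes at 0 in both pools, filled points other called genes and open points genes not called. The called genes lie below 0 apart from MSX1. Genes whose difference was built in are plotted too and enter the medians. The median of the other receptors, -2.71, thus includes ENG and ACVR1B.

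Of 17 genes for ligand storage and antagonists 7 were tested and 2 fell, THBS1 at 9.80 and LEFTY1 at 11.4 in the vector library, both at 0 in both pools (list median 0.49). The latent TGF-beta binding protein LTBP4 had 70.6 and 48.2, against 26.9, NBL1 41.9 and 22.2, against 14.4, and TWSG1 38.8 and 29.8, against 24.0, and none of these passed. LTBP3 had 21.1 and 13.3, against 23.0, and did not pass. Of 16 negative regulators 15 were tested, all above 0 in both pools, with a median of 0.24, and 1 fell, the ubiquitin ligase gene NEDD4L. It had 1.99 and 2.36 in the pools, against 60.6, in row NM_001144970. Its row NM_001144971 had equal pool values and 3.36 in the vector library, and 3 of its 9 rows were lower by the size rule. TGIF1 had 51.9 and 41.8, against 27.5, USP9X 31.3 and 24.2, against 18.4, SKIL 20.7 and 16.8, against 27.3, and WWP1 9.40 and 8.10, against 17.7, and none passed. In row NM_001145098 SKIL had 20.8 and 17.2, against 9.96, so both pools were above the vector library there.

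Of 15 SMAD partners all were tested and 4 fell (median 0.37). RUNX1, RUNX2 and RUNX3 were at 0 in both pools, against 13.7, 14.6 and 77.5, in the tested rows. Their lowest rows had vector values of 0, 0 and 2.56. FOXH1, which binds SMAD2 complexes, had 1.17 and 0.488 in the pools, against 121. LEMD3, TAB1, ZFYVE16 and IPO8 had pool values of 15.5 to 20.4, against 6.98 to 11.7, and none passed.

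Of 24 target genes of TGF-beta signalling 15 were tested, 3 fell and 0 rose (median -0.19). Of these, TGFBI was at 0 in both pools, against 12.1 in the vector library, and ITGB6 at 0 in both, against 15.0. COL3A1 had 986 and 717 in the pools, against 249, SNAI2 37.0 and 20.2, against 11.4, COL1A2 83.8 and 69.0, against 47.1, and SPHK1 9.47 and 6.84, against 59.8, and none passed. SPHK1 had 7.14 and 5.76, against 4.93, in row NM_182965, and both pools were above the vector library in that row and in NM_001142601. The summed level of 5 fibroblast markers was 742 and 681 in the pools, against 277, mostly from DCN and LUM, and its part in the COL3A1 and COL1A2 values was not tested. COL1A1, both a marker and a target gene, had 0 and 0.706, against 7.41, and did not pass. It was named after its values were seen. Of 11 target genes of BMP signalling 6 were tested, 1 rose and 0 fell (median 0.44). The filter left out BAMBI, DLX5, MSX2 and ATOH8, at 0 in both pools, against 6.53, 6.59, 5.20 and 0.47 in the vector library. It also left out NOG, at 0 in all 3 libraries. These genes were named after their values were seen, and the median does not cover them. MSX1, a homeobox factor, had 9.68 and 7.61 in the pools, against 1.64. Its call was lost with no filter, with a pseudocount of 10, without a variance trend and with a robust fit, where 0 list genes rose. ID1 had 50.8 and 41.6, against 23.9, ID3 155 and 96.6, against 85.0, and ID4 25.9 and 24.9, against 46.4, and none passed.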

How the data were processed

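Reads were aligned to hg19 by the authors, per the labels' protocols, and each transcript was given the median read density over 50 bp windows. The deposited values are this coverage signal per RefSeq transcript, on a linear scale. The protocols also name log transformation and quantile normalization, which the deposited values do not show. The aligner is not given in the sources used here. No read counts come with the signal, so depth is unknown.

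Of 29156 rows, 308 without a vector value were left out, none of them a member. Symbols turned into dates were restored by accession for 52 of 54 rows. One row per gene, the row of highest mean, was used, as log2(coverage + 1). The lowest 25% of nonzero gene means, up to a coverage of 2.44, were dropped and the rest tested with limma 3.58.1 in R 4.3.3, with eBayes, a variance trend and Benjamini-Hochberg adjustment. The fit was tested on simulated data, in which the vector library was as variable as the pools and few genes changed, equally in both directions. That setting cannot show how the fit behaves where the vector library differs in spread. Seed matches used GENCODE on GRCh37, with 97.7% of tested genes matched. The miRNA sequences are from RefSeq on GRCh38.p14.

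The members and lists were chosen with earlier results of these data known. Named genes are all members with all their rows, up to 6 genes per list past the test and at least 1 log2 unit apart in both pools, up to 4 others per list above 10 in a library with the largest difference, and the 5 nearest to SMAD7. Alternatives covered the filter, scaling, pseudocount, row, genes tested, variance model, size rule and each pool left out. One gene of the target list is counted but not reported here by name.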

Additional observations from a re-analysis of the deposited data

How the results depend on the processing

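No paired analysis was possible because the pBABE group has a single library, so the groups share at most 1 replicate number. All alternatives rest on the same 3 libraries, so a call kept in them is no independent support. SMAD7 kept its direction and its call in every alternative with a test, and SMAD9 in all but the row of lowest vector value, where its log2 difference was -0.59. In that setting 1 of the 10 genes fell, 1 was lower by the size rule of 1 log2 unit in both pools, and 2 list genes rose. No filter gave 278 rises and 5626 falls over all genes, 5718 lower by the size rule, and 0 rises and 34 falls in the lists. A filter at the median tests 7 of the 10 genes, and its p-values carry little weight, as given for SMAD5. It gave 1 rise among them, 402 rises and 1476 falls, 1428 lower by the size rule, and 2 rises and 11 falls in the lists. Medians set equal gave 1 rise among the 10 genes, 2 of them higher by the size rule, 1806 rises, 791 higher by the size rule, and 11 list rises. Quantile normalization gave 6 rises and 4 higher among the 10 genes, 4686 rises, 3068 higher, and 28 list rises, and reversed SMAD6 (0.99) and TGFBR2 (0.50). The shift by genes above 50 gave 4 falls among the 10 genes, 311 rises, 93 higher, and 2 list rises, and reversed SMAD3 (-0.14). A pseudocount of 0.1 gave 506 higher by the size rule, and one of 10 gave 63 higher, 2282 lower and 0 list rises. Genes above 0 in both pools gave 447 rises, 1697 lower, and 5 rises and 10 falls in the lists. In that setting the p-values of SMAD7 and SMAD9 were far smaller than in the main test, so its p-values also carry little weight. Without a variance trend 0 list genes rose, and a robust fit gave 43 rises and 0 in the lists. Leaving out a pool gives values with no test, and SMAD3 ranged from -0.25 without pool 1 to 0.61 without pool 2. With either pool left out, 0 to 2 of the 10 genes were higher by the size rule and 2 lower, and 356 to 1305 of all genes were higher. Size rules of 1.5-fold and of 2 log2 units gave 1711 and 15 higher. With the 8-base match alone, 1 of the 10 genes held a seed match. Where no construction of the alternative is named, the cause was not tested.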
